A study of Mus musculus with 6 samples.

Results

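The IGF ligands, receptors and binding proteins were examined in NOR-10 cells, a line of fibroblasts from mouse skeletal muscle. The family was taken as the 10 rows of the gene table named Igfbp2 to Igfbp7, Igf1, Igf2, Igf1r and Igf2r, of 34745 genes in all. It holds 6 binding proteins, 2 ligands and 2 receptors. RNA was sequenced in 3 control libraries of cells given PBS and in 3 libraries of cells given D-gal (D-galactose, a sugar used to induce cellular senescence). The study's methods put the D-gal at 20 mg/mL for 3 days. All libraries came from the same unmodified line, and the labels name no genotype. Nothing in the labels says whether the libraries of a group came from separate cultures, so p-values measure only the spread between these libraries, which may be technical. The question was how each member of the family changed under D-gal when set beside Igfbp5, the gene that the study followed further.

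IGF1 and IGF2 are secreted growth factors that act through the tyrosine kinase receptor encoded by Igf1r, while the receptor encoded by Igf2r takes up IGF2 for breakdown in lysosomes. The binding proteins IGFBP1 to IGFBP6 hold the ligands with high affinity outside the cell, where they can block the receptor, carry the ligand or release it after cleavage by a protease. IGFBP7 binds IGFs only weakly and is also known as an IGFBP-related protein. In skeletal muscle, IGF1 is known for promoting growth and repair, and fibroblasts are among the cells that make both ligands and binding proteins.

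Library totals lay between 13759108 counts (D-gal library 3) and 20830349 counts (control library 2), and each D-gal total was below each control total. Mitochondrial genes took 4.26% to 4.44% of the counts in controls and 4.87% to 4.98% in D-gal libraries. Of 10 fibroblast markers, 8 were above 1 CPM (the count scaled by the library total), while Lum and Fap were near 0. Their summed level was 7075 to 7242 CPM in controls and 4755 to 4876 in D-gal libraries. Of 5 smooth muscle and pericyte markers, 4 were above 1 CPM, and their sum was 2488 to 2571 in controls and 3339 to 3661 in D-gal libraries. Of 8 myogenic markers, Des and Acta1 were above 1 CPM. The early muscle markers Pax7, Myf5 and Myod1 of the same list were at 0 in every library. Endothelial, leukocyte, adipocyte and myogenic lists summed to at most 16.7 CPM in any library, the highest being leukocyte genes in control library 1. The part of the marker shifts and of the mitochondrial share in the results below was not tested, and in bulk RNA fewer cells of a type and less RNA per cell cannot be told apart.

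The promoter sequences of Igfbp5, Igfbp7 and Igfbp6 are given because these are the gene compared with all others and the 2 most abundant binding protein genes, one higher and one lower under D-gal. Each is the 250 bases before the start of the gene in RefSeq (GRCm38.p6), written 5′ to 3′ on the strand of the gene. The positions are chr1:72874866-72875115 on the minus strand for Igfbp5, chr5:77408046-77408295 on the minus strand for Igfbp7 and chr15:102143936-102144185 on the plus strand for Igfbp6. Capitals mark matches to the motifs searched.
Igfbp5: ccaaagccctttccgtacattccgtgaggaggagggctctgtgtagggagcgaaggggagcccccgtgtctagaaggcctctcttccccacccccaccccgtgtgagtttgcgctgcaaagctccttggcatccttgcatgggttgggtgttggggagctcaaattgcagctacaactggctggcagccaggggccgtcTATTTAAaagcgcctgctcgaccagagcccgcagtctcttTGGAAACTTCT
Igfbp7: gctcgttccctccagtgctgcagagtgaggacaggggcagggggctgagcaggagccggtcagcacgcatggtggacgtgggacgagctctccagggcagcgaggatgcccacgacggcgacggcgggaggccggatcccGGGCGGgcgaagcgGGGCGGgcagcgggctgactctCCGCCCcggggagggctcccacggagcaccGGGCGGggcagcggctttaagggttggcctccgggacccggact
Igfbp6: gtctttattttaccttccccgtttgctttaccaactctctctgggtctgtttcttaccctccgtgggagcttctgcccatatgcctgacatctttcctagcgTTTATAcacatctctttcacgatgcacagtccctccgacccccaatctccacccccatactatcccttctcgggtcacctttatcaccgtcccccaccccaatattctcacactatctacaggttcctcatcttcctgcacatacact

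Motifs were chosen after the sequences had been seen and were searched on both strands, in windows from 250 bases before to 50 bases after the start. The window of Igfbp5 held TATTTAA, which begins 51 bases before the start, and a match to the tonicity-responsive enhancer consensus that begins 11 bases before it. These were found in 4.51% and 4.96% of the 32851 RefSeq windows searched, and in the family the Igfbp5 window alone held either. With motifs chosen from sequences already seen, neither these percentages nor the absence from the other members is a test. The window of Igfbp7 held the GC box GGGCGG 4 times, a motif present in 35.7% of all windows and also in windows of Igfbp2, Igf1r, Igf2 and Igf2r. The window of Igfbp6 held the motif TATAAA, present in 13.6% of all windows, on the opposite strand beginning 148 bases before the start. The window of Igfbp4 held it too, on the strand of the gene, 28 bases before the start. In the gene table the start of Igfbp5 lies 19 bases upstream of the RefSeq start, so the last 19 bases printed are annotated there as exon. The table's starts of Igfbp7 and Igfbp6 lie 4 and 176 bases downstream of the RefSeq starts. Matches of letters are a description and do not show binding.

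Under D-gal, the binding protein genes moved in opposite directions. Igfbp5 and Igfbp7 were higher, Igfbp3 and Igfbp6 were lower, and Igfbp2 and Igfbp4 did not pass the test. Of the other members, Igf1 and Igf1r were slightly higher, Igf2r was slightly lower, and Igf2 did not pass. With edgeR's quasi-likelihood test, 2 of the 10 members (20%) had an adjusted p under 0.05 and moved by 1 or more on the log2 scale, Igfbp5 upward and Igfbp3 downward, against 564 of the 13407 genes tested (4.21%). The study had picked out Igfbp5 as differentially expressed in these same libraries, so its place in these counts was known beforehand. By the adjusted p alone 7 of the 10 passed (70.0%), against 34.8% of all genes tested. Of these, 4 members were higher and 3 were lower, where 16.9% of all genes were higher and 17.8% lower. The median log2 fold change of the 10 members was -0.02. The groups of 3 libraries did not overlap in 8 members, and 49.1% of all genes tested were of this kind. All 10 members passed the filter on low counts.

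**Figure D1:**
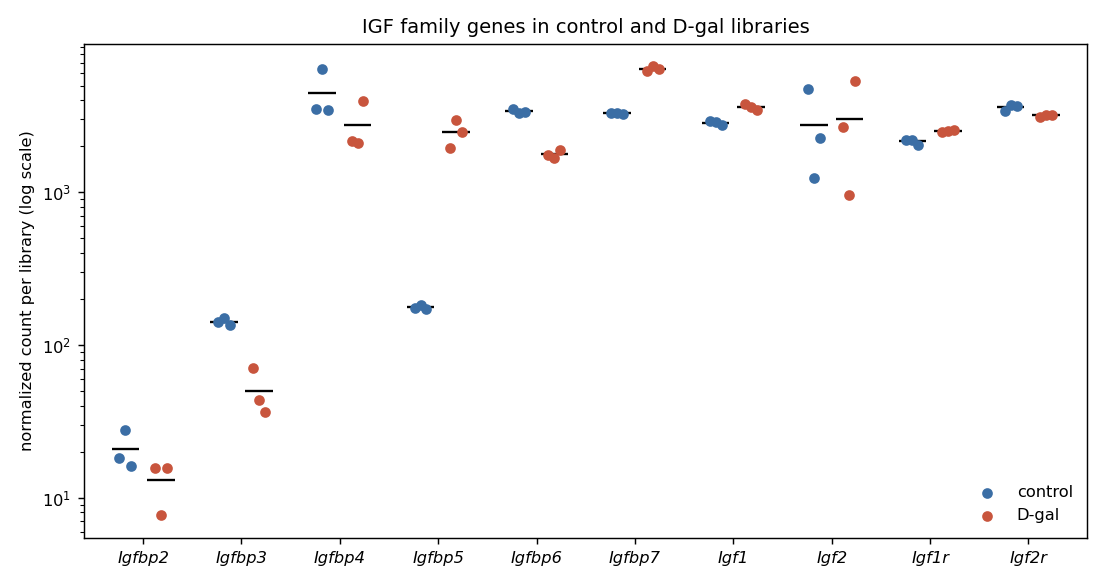
Normalized count (log scale) of each of the 10 members in every library, with controls in blue, D-gal libraries in red and the mean of each group as a black line. The 3 Igfbp5 points of D-gal lie between 1956 and 2979, all above the controls at 172 to 184, while the points of Igf2 and Igfbp4 overlap between groups.

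Igfbp5, whose product binds IGFs and also attaches to extracellular matrix, lies on the minus strand of chromosome 1 (GRCm38, 72857932 to 72874884). Its normalized counts, which are counts scaled to a common library size, were 175, 184 and 172 in controls and 1956, 2979 and 2487 in D-gal libraries. The lowest D-gal library thus lay far above the highest control. The controls spanned a 1.07-fold range, and the D-gal libraries, of which library 1 was the lowest, a 1.52-fold range. Igfbp5 rose 14.0-fold, a log2 fold change of 3.80 ± 0.15 (SE) with an adjusted p of 3.9e-06. No other member changed by as much in either direction in this fit.

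Igfbp2, which encodes a secreted IGF binding protein, is the neighbour of Igfbp5, 5458 bp away on the plus strand (chromosome 1, 72824503 to 72852474), so that the genes face each other with their 3′ ends. It had 18.3, 27.7 and 16.2 normalized counts in controls and 15.7, 7.64 and 15.7 in D-gal libraries. Each D-gal value was below each control value, but by little. At 7 to 34 raw counts per library, a difference of this size was not detectable beyond the spread, with a log2 fold change of -0.69 ± 0.37 (SE) and an adjusted p of 0.187. The log2 fold change was -0.41 without control library 2 and also -0.41 without D-gal library 2.

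Igfbp7, a matrix-associated protein with low affinity for IGFs, lies on the minus strand of chromosome 5 (77349240 to 77408041). Its normalized counts were 3324, 3306 and 3261 in controls and 6177, 6666 and 6371 in D-gal libraries. The spread was small in both groups and the gap between them wide. Igfbp7 rose 1.94-fold, a log2 fold change of 0.96 ± 0.04 (SE) with an adjusted p of 3.3e-06. Its exons overlap those of Polr2b, a subunit gene of RNA polymerase II, on the other strand, and the sources used here do not give whether counting used strand. Polr2b itself had a log2 fold change of -0.04 and an adjusted p of 0.451.

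Igfbp6, whose product prefers IGF2 to IGF1, lies on the plus strand of chromosome 15 (102144362 to 102149511). Its normalized counts were 3532, 3310 and 3361 in controls and 1765, 1666 and 1898 in D-gal libraries. It fell 1.92-fold, with the groups well apart. The log2 fold change was -0.94 ± 0.05 (SE) and the adjusted p 1.5e-05.

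Igfbp3, the main carrier of IGFs in blood, lies on the minus strand of chromosome 11 (7206086 to 7213923). It had 140, 149 and 134 normalized counts in controls and 70.7, 43.7 and 36.1 in D-gal libraries. D-gal library 1 was the highest of its group but still far below the lowest control. Igfbp3 fell 2.81-fold, a log2 fold change of -1.49 ± 0.22 (SE) with an adjusted p of 0.00143. The gene facing it 3540 bp away, Igfbp1, which in mammals is made mostly by the liver, had 1 count in all, in D-gal library 3. A count of 0 allows up to 0.144 to 0.202 CPM in the other 5 libraries, taking 3 counts as the limit and counting error only.

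Igfbp4, which encodes an inhibitory binding protein cleaved by the protease PAPP-A, lies on the plus strand of chromosome 11 (99041244 to 99054392). Its normalized counts were 3528, 6418 and 3453 in controls and 2159, 2092 and 3972 in D-gal libraries. Control library 2 and D-gal library 3 stood above the other libraries of their groups, and the groups overlapped. The log2 fold change was -0.71 ± 0.31 (SE) with an adjusted p of 0.114, and the two-sided exact permutation test of 3 against 3 gave p = 0.3. Single libraries moved this value in both directions. Without D-gal library 3 the log2 fold change was -1.07 with an adjusted p of 0.0253, and without control library 2 it was -0.35 with an adjusted p of 0.367.

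**Figure D2:**
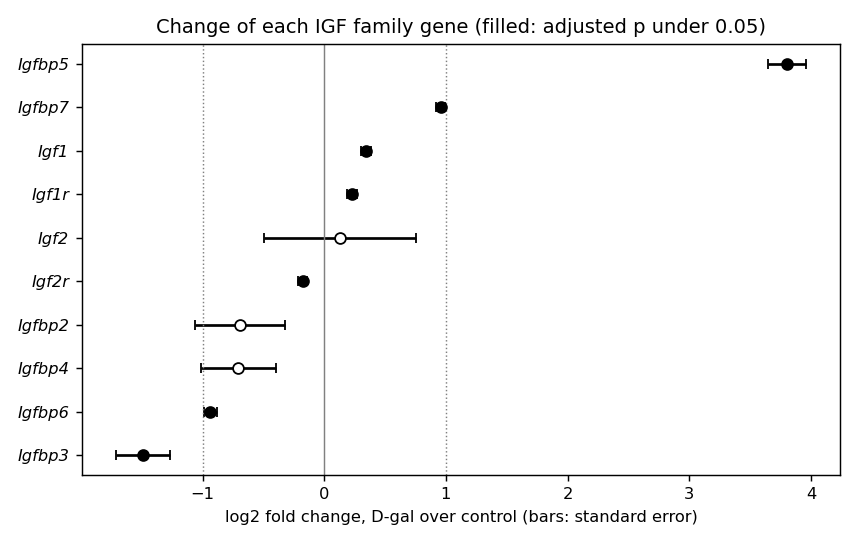
Log2 fold change of D-gal over control for each member, with bars for the standard error, filled points for an adjusted p under 0.05 and dotted lines at 1 and -1. Igfbp5 stands at 3.80, Igfbp7 and Igfbp6 lie just inside the dotted lines at 0.96 and -0.94, and the bars of Igf2, Igfbp2 and Igfbp4 are the widest.

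The ligand gene Igf1 lies on the plus strand of chromosome 10 (87858265 to 87937042). It had 2907, 2895 and 2740 normalized counts in controls and 3758, 3628 and 3450 in D-gal libraries. The groups did not overlap, and the rise was 1.27-fold, with a log2 fold change of 0.34 ± 0.04 (SE) and an adjusted p of 0.00067.

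Igf2, an imprinted growth factor gene, lies on the minus strand of chromosome 7 (142650766 to 142666816). Its normalized counts were 4742, 1244 and 2256 in controls and 2683, 960 and 5387 in D-gal libraries. The libraries of 1 group thus differed by 3.81-fold in controls and 5.61-fold under D-gal, more than the groups did. The log2 fold change was 0.13 ± 0.62 (SE) with an adjusted p of 0.897, and its sign changed when control library 2 (-0.22) or D-gal library 3 (-0.59) was left out. Among 10418 genes with a mean of at least 100 counts, the spread of Igf2 within groups (SD 1.12 on the log2 scale) was number 20 from the top. Igfbp4 (0.51) was number 145 and Igfbp5 (0.22) number 890, whereas Igf1 (0.06), Igfbp6 (0.07) and Igfbp7 (0.04) were below the median gene (0.08). H19, the neighbouring imprinted RNA, had a log2 fold change of -0.49 and an adjusted p of 0.200. Exons of Igf2 overlap those of Gm49394 on the same strand and of Igf2os on the other. Igf2os was counted at 33 to 45 reads per library with a log2 fold change of 0.25 and an adjusted p of 0.358, and Gm49394 was not analysed here.

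Igf1r, the receptor gene through which both ligands act, lies on the plus strand of chromosome 7 (67952859 to 68226780). Its normalized counts were 2186, 2214 and 2054 in controls and 2491, 2509 and 2557 in D-gal libraries. The rise was small but the groups were apart, at 1.17-fold, a log2 fold change of 0.23 ± 0.04 (SE) and an adjusted p of 0.0032.

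Igf2r, the clearing receptor for IGF2, lies on the minus strand of chromosome 17 (12682406 to 12769664). It had 3423, 3700 and 3670 normalized counts in controls and 3123, 3215 and 3205 in D-gal libraries. The fall was 1.13-fold, with a log2 fold change of -0.18 ± 0.04 (SE) and an adjusted p of 0.0101. Changes in both receptor genes were thus under 1.2-fold in size, against 14.0-fold for Igfbp5.

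For a single gene, the two-sided exact permutation test of 3 against 3 libraries cannot go below p = 0.1, and the 8 members whose groups did not overlap reached that value.

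Because longer transcripts give more reads, levels of different genes were compared as normalized counts per kilobase of annotated exon. In controls Igfbp6 had the highest level of the family (3059 ± 104, SD, n = 3), followed by Igfbp7 (2727 ± 26.8) and Igfbp4 (1011 ± 383). Igf2 (480 ± 315), Igf2r (387 ± 16.3), Igf1 (288 ± 9.43) and Igf1r (128 ± 5.08) came next. Igfbp3 (45.2 ± 2.41), Igfbp5 (29.4 ± 1.02) and Igfbp2 (11.2 ± 3.34) were the lowest. The ranges of Igfbp4 and Igf2 overlapped, as did those of Igf2 and Igf2r, while all other neighbours in this order were apart.

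Under D-gal, Igfbp7 was the highest (5297 ± 204, SD, n = 3), before Igfbp6 (1598 ± 104) and Igfbp4 (621 ± 241). Igf2 (526 ± 390), Igfbp5 (412 ± 85.2) and Igf1 (365 ± 15.6) followed. From Igfbp4 to Igf1, each gene overlapped the next in this order. Igf2r (342 ± 5.41), Igf1r (150 ± 2.02), Igfbp3 (16.0 ± 5.81) and Igfbp2 (7.04 ± 2.52) had lower means and were apart from one another, although the range of Igf2r lay within those of Igf2 and Igfbp5. By these means Igfbp5 went from number 9 of 10 to number 5, and Igfbp6 and Igfbp7 exchanged the first place. The middle of the order depended on the gene length used. Under D-gal, Igfbp5 was number 7 by the deposited FPKM values and number 6 by the length of the longest coding transcript, while in controls it was number 9 by both, and the exchange of Igfbp6 and Igfbp7 was seen with both. The place of Igf1r is the least certain, because its annotated exons cover 16791 bases whereas the deposited FPKM values imply a length of 4489 bases.

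Igfbp5 made up 0.43%, 0.42% and 0.43% of all Igfbp transcripts per exon length in the controls and 4.32%, 6.20% and 4.98% in the D-gal libraries. The share went from 0.428% ± 0.00659 (SD, n = 3) to 5.17% ± 0.955, a difference of 4.74 percentage points. Even so, Igfbp5 remained a small part of the Igfbp pool, whose largest shift was an exchange between Igfbp6 and Igfbp7. Igfbp7 had a share of 39.7% ± 1.76 in controls and 66.7% ± 2.90 under D-gal, and Igfbp6 had 44.5% ± 3.07 and 20.1% ± 1.22. The share of Igfbp4 was 14.6% ± 4.74 in controls and 7.74% ± 2.68 under D-gal. Igfbp3 went from 0.656% ± 0.00342 to 0.204% ± 0.0843, and Igfbp2 from 0.162% ± 0.0396 to 0.0889% ± 0.0326. In all 6 detected binding proteins these shares per exon length did not overlap between groups, including Igfbp4, whose normalized counts did. For Igfbp4 this depended on the gene length used. By the deposited FPKM values Igfbp4 had 34.05 of 324.8 in control library 1 and 39.21 of 354.1 in D-gal library 3, so the groups overlapped. Shares other than that of Igfbp5 were not tested with other lengths or without Igfbp7. Each of the 6 shares per exon length gave p = 0.1 in the two-sided exact permutation test, the smallest possible, or 0.117 after Benjamini-Hochberg adjustment over 7 shares. Shares within a library sum to 100%, so they do not move independently. The count of 6 has no counterpart over all genes, since shares exist only within this pool. By normalized counts, 49.1% of all genes tested did not overlap, and neither Igfbp2 nor Igfbp4 passed the test on its own counts. The count is therefore not read as a result about the family.

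The size of the Igfbp5 share depended on the scale. Without division by length, as a share of Igfbp reads, Igfbp5 went from 1.55% ± 0.157 (SD, n = 3) to 18.4% ± 3.30. Its annotated exons cover 6006 bases. When Igfbp7 was left out of the pool, the share of Igfbp5 went from 0.710% ± 0.0310 to 15.7% ± 3.72. With the deposited FPKM values it went from 0.322% ± 0.00329 to 4.46% ± 0.863.

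**Figure D3:**
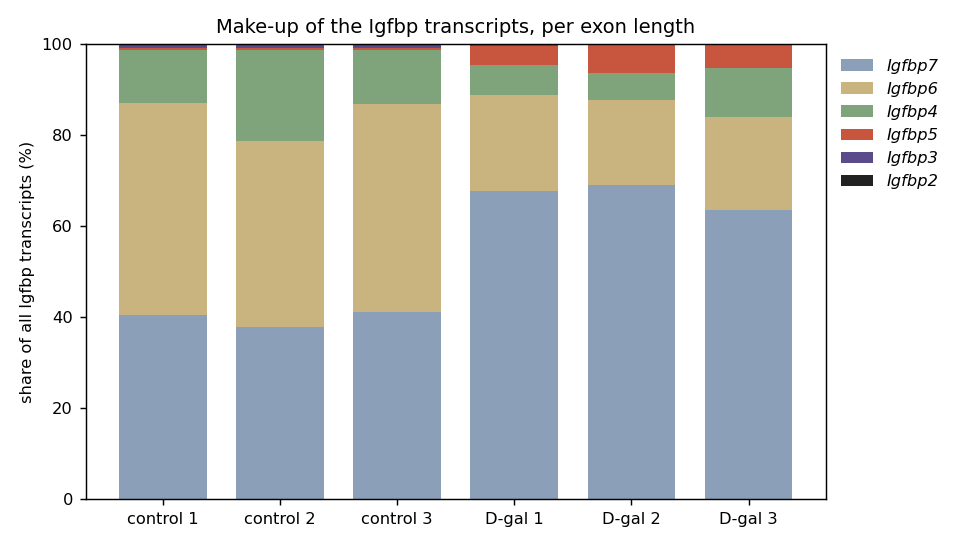
Share of each binding protein gene in all Igfbp transcripts of a library, in percent per exon length, as stacked bars for the 6 libraries. Igfbp5, in red, is a thin line of 0.42% to 0.43% in controls and a band of 4.32% to 6.20% under D-gal, and the Igfbp7 band runs from 37.7% to 41.0% in controls and from 63.4% to 68.9% under D-gal.

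The summed level of all Igfbp genes per kilobase was 6808, 7259 and 6582 in controls and 7542, 8000 and 8310 in D-gal libraries. The D-gal sums were 1.16-fold higher on average and did not overlap the controls (two-sided exact permutation p = 0.1). This depended on the gene length used, since the deposited FPKM values gave a ratio of 1.03 with overlapping groups (exact permutation p = 0.5) and the longest coding transcript a ratio of 1.14 with groups apart. With no division by length the ratio was 1.17 and the groups overlapped (exact permutation p = 0.2). Without Igfbp5 the sums per kilobase were 6853 ± 344 (SD, n = 3) and 7539 ± 341, a ratio of 1.10, and the groups overlapped (exact permutation p = 0.2). That ratio was 1.09 with the longest coding transcript, 0.99 with the deposited FPKM values and 0.97 with no division by length, and the groups overlapped in each. The summed level of Igf1 and Igf2 was 768 ± 318 in controls and 891 ± 380 under D-gal, which overlapped (exact permutation p = 0.6).

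The ratio of all Igfbp to both ligands was 6.07, 14.2 and 9.81 in controls and 8.89, 15.0 and 6.44 in D-gal libraries. Its means of 10.04 ± 4.09 (SD, n = 3) and 10.11 ± 4.40 differed by less than the spread (exact permutation p = 1). In each group the ratio was highest in the library with the least Igf2 and lowest in the library with the most. With Igf1 alone as the ligand, a choice made after the data were seen, the ratio was 23.9 ± 0.829 in controls and 21.9 ± 1.99 under D-gal, and the groups still overlapped (exact permutation p = 0.3).

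Within each library, the count of Igfbp5 was divided by that of every other member, which removes the effect of library size. The log2 ratio was higher in every D-gal library than in every control for all 9 members. This follows from the 14.0-fold rise of Igfbp5 itself, and the same held for 99.6% of the 13406 other genes tested, so it says nothing particular about the family. The sizes differed between members. The difference between groups was smallest for Igfbp7 (2.83), Igf1 (3.44) and Igf1r (3.55), the members that were themselves higher. It was 3.76 for Igf2, 3.96 for Igf2r, 4.46 for Igfbp2 and 4.49 for Igfbp4. For the falling genes Igfbp6 and Igfbp3 it was 4.72 and 5.32. Each comparison gave p = 0.1 in the two-sided exact permutation test, which is the smallest possible, and 0.1 after Benjamini-Hochberg adjustment over 9. The 9 comparisons share the same Igfbp5 values and are not independent.

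As levels per kilobase, Igfbp6 was 97.4 to 109 times as high as Igfbp5 in the controls and 3.02 to 4.87 times under D-gal. Igfbp7 was 89.5 to 94.4 times as high as Igfbp5 in controls and 11.1 to 15.7 times under D-gal. Against Igfbp4, a gap of 27.4 to 47.6 times narrowed to 0.955 to 2.17 times. By the deposited FPKM values it narrowed to 1.14 to 2.60 times and by the longest coding transcript to 1.10 to 2.50 times, with Igfbp4 above Igfbp5 in each D-gal library. Igf1 was 9.56 to 10.1 times as high as Igfbp5 in controls and 0.739 to 1.17 times under D-gal. The order turned for Igfbp3, since Igfbp5 was at 0.641 to 0.666 of its level in controls and at 14.4 to 35.9 times its level under D-gal.

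**Figure D4:**
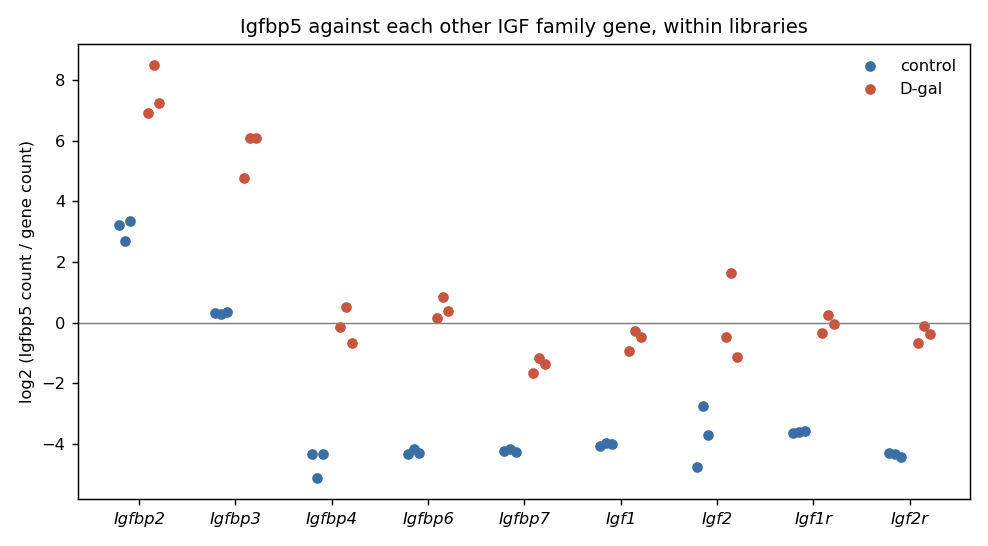
Log2 ratio of the Igfbp5 count to the count of each other member, within each control library (blue) and each D-gal library (red). For all 9 members, as for 99.6% of other genes, the D-gal points lie above the control points, and the difference of group means runs from 2.83 for Igfbp7 to 5.32 for Igfbp3.

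Beyond the family, 6 lists of genes of the IGF pathway held 102 genes, of which 94 were tested. Of these, 3 (2 higher and 1 lower) passed both thresholds, which at 3.19% is no more than the 4.21% of all genes tested, and 18 were higher and 26 lower by the adjusted p alone (46.8%, against 34.8% of all genes). The median log2 fold change was -0.05, beside 0.00 for all genes tested.

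The 3 genes were in the list of ligand availability and processing, which has 23 genes of which 21 were tested, with 5 higher and 7 lower by the adjusted p (57.1%, against 34.8% of all genes) and a median of -0.06. Stc1 and Stc2 encode stanniocalcins, secreted inhibitors of the proteases that cleave IGFBP4 and IGFBP5. Stc1 rose from 347 ± 22.3 (SD, n = 3) to 1826 ± 276 normalized counts, a log2 fold change of 2.40 ± 0.11 (SE) with an adjusted p of 7.9e-06. Stc2 rose from 159 ± 1.61 to 382 ± 17.6, by 1.26 ± 0.08 with an adjusted p of 2.4e-05. Adam12, a metalloprotease that can cleave IGFBP3 and IGFBP5, fell from 515 ± 36.8 to 222 ± 22.2 normalized counts, a log2 fold change of -1.21 ± 0.10 (SE) with an adjusted p of 6.9e-05. The metalloprotease gene Adamts1 (log2 fold change 0.53) and the proprotein convertase genes Pcsk6 (0.60) and Furin (0.42) were also higher. Lower by the adjusted p were the protease genes Plau (-0.92), Htra1 (-0.78), Mmp2 (-0.51), Mmp14 (-0.47) and Plat (-0.34). Pappa, which encodes the protease PAPP-A, and its relative Pappa2 did not pass, at 0.40 (adjusted p 0.0716) and 0.19 (adjusted p 0.548). Stc1 overlaps the exons of Gm41192 on the other strand, and Pcsk6 those of Gm45213 on its own strand.

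In the 3 lists of signalling inside the cell no gene passed both thresholds, where 4.21% of all genes did, and small lists such as these would hold few at that share. Of 14 genes tested next to the receptor, 4 were higher and 4 lower by the adjusted p (57.1%, against 34.8% of all genes), with a median log2 fold change of -0.03. Among them were Socs2, an inhibitor of cytokine and growth hormone signals (0.90), the docking protein gene Gab1 (0.44) and the adaptor gene Grb14, which inhibits the insulin receptor (-0.58). The receptor substrate gene Irs1 was at 0.32 (adjusted p 0.0025), the insulin receptor gene Insr at -0.15 (0.0453) and Irs2 at -0.05 (0.769).

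In the PI3K, AKT and mTOR list, 3 of 29 genes were higher and 7 lower (34.5%), with a median of -0.06. These included Inppl1, a lipid phosphatase gene (0.56), Pik3r1, the regulatory subunit of PI3-kinase (-0.48), and Deptor, an mTOR inhibitor (-0.44). In the RAS and MAPK list, 3 of 18 were higher and 3 lower (33.3%), with a median of 0.02. There the kinase gene Braf (0.49) and Spry1, an inhibitor of receptor tyrosine kinase signals (0.88), were higher, and the MAPK phosphatase gene Dusp4 (-0.50) was lower. The shares of genes that passed in these 2 lists were near the 34.8% of all genes. Exons of Inppl1, Deptor, Braf, Gab1 and Spry1 overlap those of other genes on the other strand.

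Of 7 genes for proteins reported to bind IGFBP5, 5 were tested, with 2 higher and 1 lower by the adjusted p (60.0%, against 34.8% of all genes). Fhl2, a LIM domain protein (log2 fold change 0.27), was among the higher genes, and Spp1, osteopontin (-0.47), was the lower one. Exons of Spp1 overlap those of Gm42793 on the same strand. Of 8 tested genes for proteins related to the IGFBPs by sequence, 1 was higher and 5 were lower (75.0%, against 34.8% of all genes), with a median of -0.32. The higher gene was Cyr61 (0.31), a matrix-associated growth regulator also called Ccn1. The lower genes were its relatives Wisp2 (-0.40), Nov (-0.64) and Ctgf (-0.25) and the serine protease genes Htra1 (-0.78) and Htra3 (-0.90).

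**Figure D5:**
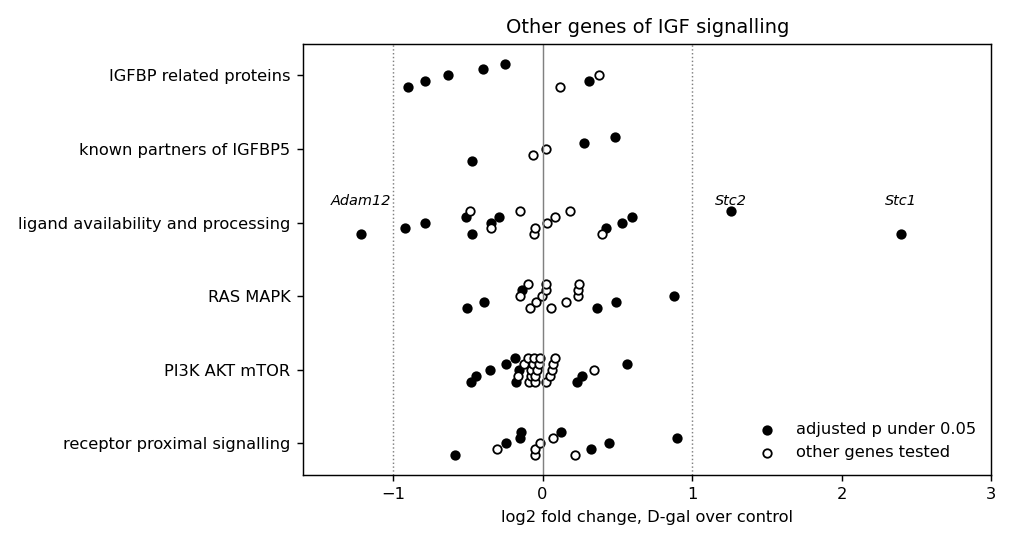
Log2 fold change of D-gal over control for each gene tested in 6 lists of the IGF pathway, filled where the adjusted p was under 0.05, with dotted lines at 1 and -1. The genes beyond the dotted lines are Stc1 (2.40), Stc2 (1.26) and Adam12 (-1.21), all in the ligand availability list.

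The genes with the profile most like that of Igfbp5 were sought by the distance between log2 normalized counts over the 6 libraries, each centred on its own mean, among genes with a mean of at least 100 counts. The nearest was RP23-421B1.4, annotated as the transcribed pseudogene Gm5886, at a distance of 0.45 and with a log2 fold change of 3.49. Tnn, which encodes the matrix protein tenascin-N (distance 0.53), and Slco4a1, an organic anion transporter gene (0.96), followed with log2 fold changes of 4.17 and 3.75. Lrrn3, a leucine-rich repeat gene (1.27), and Stc1 (1.73) came next, with log2 fold changes of 2.78 and 2.40. In all 5 genes, as in Igfbp5, D-gal library 1 was the lowest and D-gal library 2 the highest of the D-gal libraries, a likeness that the measure itself favours. No other member of the IGF family was among them. The measure depends on the size of the rise, which among those members was at most 0.96 (Igfbp7). This absence therefore adds nothing to the fold changes given above.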

How the data were processed

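RNA of 3 control and 3 D-gal libraries was sequenced by the authors, who call it mRNA sequencing. Per the methods they checked and trimmed reads with FastQC and Trimmomatic, and the submitters' processing notes name HISAT2 2.0.4. The counting tool, strand setting and annotation are not given in the sources used here, and labels and methods name different library kits. The deposited table holds raw read counts and FPKM values for each gene and library, which the authors computed. All sample columns were matched by name.

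Of 34745 identifiers, 34344 were in GENCODE M21 (GRCm38), 27776 with the same ends. The 13407 genes passing filterByExpr were tested with edgeR 4.0.16 (R 4.3.3): TMM scaling, the quasi-likelihood test and Benjamini-Hochberg adjustment over all genes, with no covariate. Thresholds were an adjusted p under 0.05, alone or together with a change of 1 or more on the log2 scale. TMM factors lay between 0.986 and 1.02. Normalized counts are counts brought to the mean of the TMM-scaled library sizes. Shares and ratios used counts per union exon length and exact permutation tests, with 0.5 added to counts for log ratios against Igfbp5. Replicate libraries differed by more than sampling noise. Precision was limited by 3 libraries a group and, for Igfbp2, by depth. Alternatives were RLE factors, DESeq2 1.42.0, other filters, thinned counts, a replicate block, omission of each library, and limma 3.58.1 on FPKM. Other gene lengths for the order of levels and the summed Igfbp level were tried after the data were seen. Genes named are all members, Igfbp1, list genes past both thresholds, the 3 smallest p of each list, and the 5 profiles nearest to Igfbp5. One gene that this rule names is not reported here. Irs1, Irs2, Insr, Pappa, Pappa2, H19, Ctgf, Nov, Htra1, Furin, Plau, Mmp2, Mmp14 and Plat were named after their values were seen. The members and lists were chosen with earlier results of these data known. Replicate numbers came from the labels. Promoters came from RefSeq (GRCm38.p6), where all 10 members had a window. The edgeR, DESeq2 and limma fits were tried on simulated counts with the same spread setting for every gene. The exact permutation tests were not tried on simulated data.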

Additional observations from a re-analysis of the deposited data

How the results depend on the processing

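The log2 fold change of Igfbp5 stayed between 2.95 and 3.95 under 14 alternatives, past the threshold in each, and lay between 3.65 and 3.95 when 1 library was left out. Igfbp3, Igfbp6, Igfbp7, Igf1, Igf1r and Igf2r kept their direction and an adjusted p under 0.05 in the same 14, with the highest adjusted p at 0.0404 for Igf2r, although Igfbp3 ranged from -1.82 to -0.84. Igfbp2 passed under none of 13 (-0.85 to -0.17, the latter with limma on log2(FPKM + 1)), and a minimum of 10 counts in every library left it out. Igfbp4 passed without D-gal replicate 3 (-1.07, adjusted p 0.0253), and Igf2 changed sign without control replicate 2 (-0.22) and without D-gal replicate 3 (-0.59), in a range of -0.59 to 0.78 with 1 library left out. Deviations of same-numbered libraries correlated at -0.01, -0.01 and 0.03. With 3 libraries a group these values cannot show whether same-numbered libraries were handled together. With the replicate number as a block, 530 genes passed both thresholds in place of 564, Igfbp5 was at 3.79, and no member's call changed.

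The 564 genes became 120 with limma on log2(FPKM + 1), 4661 by adjusted p alone, and 491 to 572 with 1 library left out. The 3 listed pathway genes became 1 with limma on log2(FPKM + 1), 44 by adjusted p alone, and 3 to 4 with 1 library left out. The difference in the Igfbp5 share, 4.74 points, became 16.8 without division by length and 14.9 without Igfbp7, and was 4.22 to 5.16 with 1 library left out. The difference in the ratio of Igfbp to ligands, 0.06, had no stable sign. It was -2.11 with deposited FPKM, -0.12 with the longest coding transcript, -0.0761 without length, -2.80 without Igfbp7, -2.08 with Igf1 alone, and -2.37 to 2.17 with 1 library left out. With 3 libraries a group, single-gene permutation tests could not pass 0.05. Depth limited Igfbp2 and Igfbp1.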
